A study of Homo sapiens with 3 samples.

Results

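The SOX17 TFAP2C cells are 443 of 9401 kept cells of a BMP4-treated library (4.71%, exact 95% interval 4.29 to 5.16), out of 23343 kept cells in all 3 libraries of the series. They were chosen by the UMI counts (distinct captured transcripts) of 4 genes. A member had at least 2 UMIs of SOX17, at least 1 of TFAP2C, at most 4 of CER1 and at most 2 of MESP1. The remaining 8958 cells are called the other kept BMP4 cells. Because measured counts chose the members, every level below describes these cells, and no test was made.

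The cells came from HES3, an established human embryonic stem cell line with a green fluorescent protein reporter at MIXL1, grown as colonies on micropatterned coverslips. All colonies were seeded with 10 µM of the ROCK inhibitor Y-27632 and, 24 h later, treated for 48 h. The BMP4 library received 50 ng/mL of BMP4, the CHIR+Activin library Activin A at 100 ng/mL together with the GSK3 inhibitor CHIR99021 at 3 µM, and the CHIR library that inhibitor alone at 6 µM. Each treatment was 1 library of about 10 pooled micropatterns, so all intervals cover counting error only and say nothing of variation between cultures.

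Human primordial germ cells are the embryonic precursors of eggs and sperm. In human cells, BMP signalling on a competent epiblast-like state induces SOX17, which acts with TFAP2C and PRDM1 (BLIMP1) to open the germ cell programme. SOX17 also marks endoderm, where CER1 and FOXA2 accompany it, and TFAP2C is also made by amnion and trophoblast, so neither gene alone defines a germ cell. Human germ cells keep POU5F1 and NANOG while SOX2 is repressed, unlike in mouse.

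The BMP4 library alone held cells that met the rule. At least 2 SOX17 UMIs were found in 1082 BMP4 cells, 108 CHIR+Activin cells and 3 CHIR cells. The TFAP2C criterion left 604, 10 and 1 of these, the CER1 limit left 540, 0 and 0, and the MESP1 limit left the 443 members. The count was 0 of 6866 CHIR+Activin cells, which allows up to 0.0437%, and 0 of 7076 CHIR cells, which allows up to 0.0424%. Median depth was 14385 UMIs and 4912 genes in the SOX17 TFAP2C cells, against 12551 UMIs and 4491 genes in the other kept BMP4 cells, with 4.20% and 4.08% of UMIs from mitochondrial genes. Pairs of libraries shared 8 to 12 cell barcodes.

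The 4 germ cell markers that the rule did not use were all higher in the SOX17 TFAP2C cells. PRDM1, the repressor that shuts off somatic genes in germ cell precursors, stood at 186 CPM (UMIs of the gene per 1000000 UMIs of the set; exact 95% Poisson interval 176 to 196) in the SOX17 TFAP2C cells and at 17.6 CPM (16.9 to 18.3) in the other kept BMP4 cells. NANOS3, an RNA-binding protein needed for germ cell survival, stood at 25.6 CPM (22.1 to 29.6) and 2.50 CPM (2.24 to 2.79) in the same order. KIT, the receptor for stem cell factor, was at 39.1 CPM (34.8 to 43.9) in the SOX17 TFAP2C cells against 13.9 CPM (13.3 to 14.6), and DND1, an RNA-binding partner of NANOS proteins, at 10.8 CPM (8.56 to 13.4) against 5.02 CPM (4.65 to 5.43). The log2 ratios were 3.40 for PRDM1 (3.30 to 3.50), 3.36 for NANOS3 (3.09 to 3.62), 1.49 for KIT (1.31 to 1.67) and 1.10 for DND1 (0.75 to 1.44). The members and the gene lists were chosen with earlier results of these data known, so these 4 ratios do not test a germ cell identity. DND1 was the least far apart, and it rested on 80 UMIs. Its log2 ratio fell under 2-fold, to 0.89, without the CER1 and MESP1 limits and to 0.98 with SOX17 of at least 3 UMIs. It was 0.07 when all cells were thinned to 3739 UMIs before the rule was applied. That setting left 108 members, so all values under it rest on fewer UMIs and are given without intervals.

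**Figure D1:**
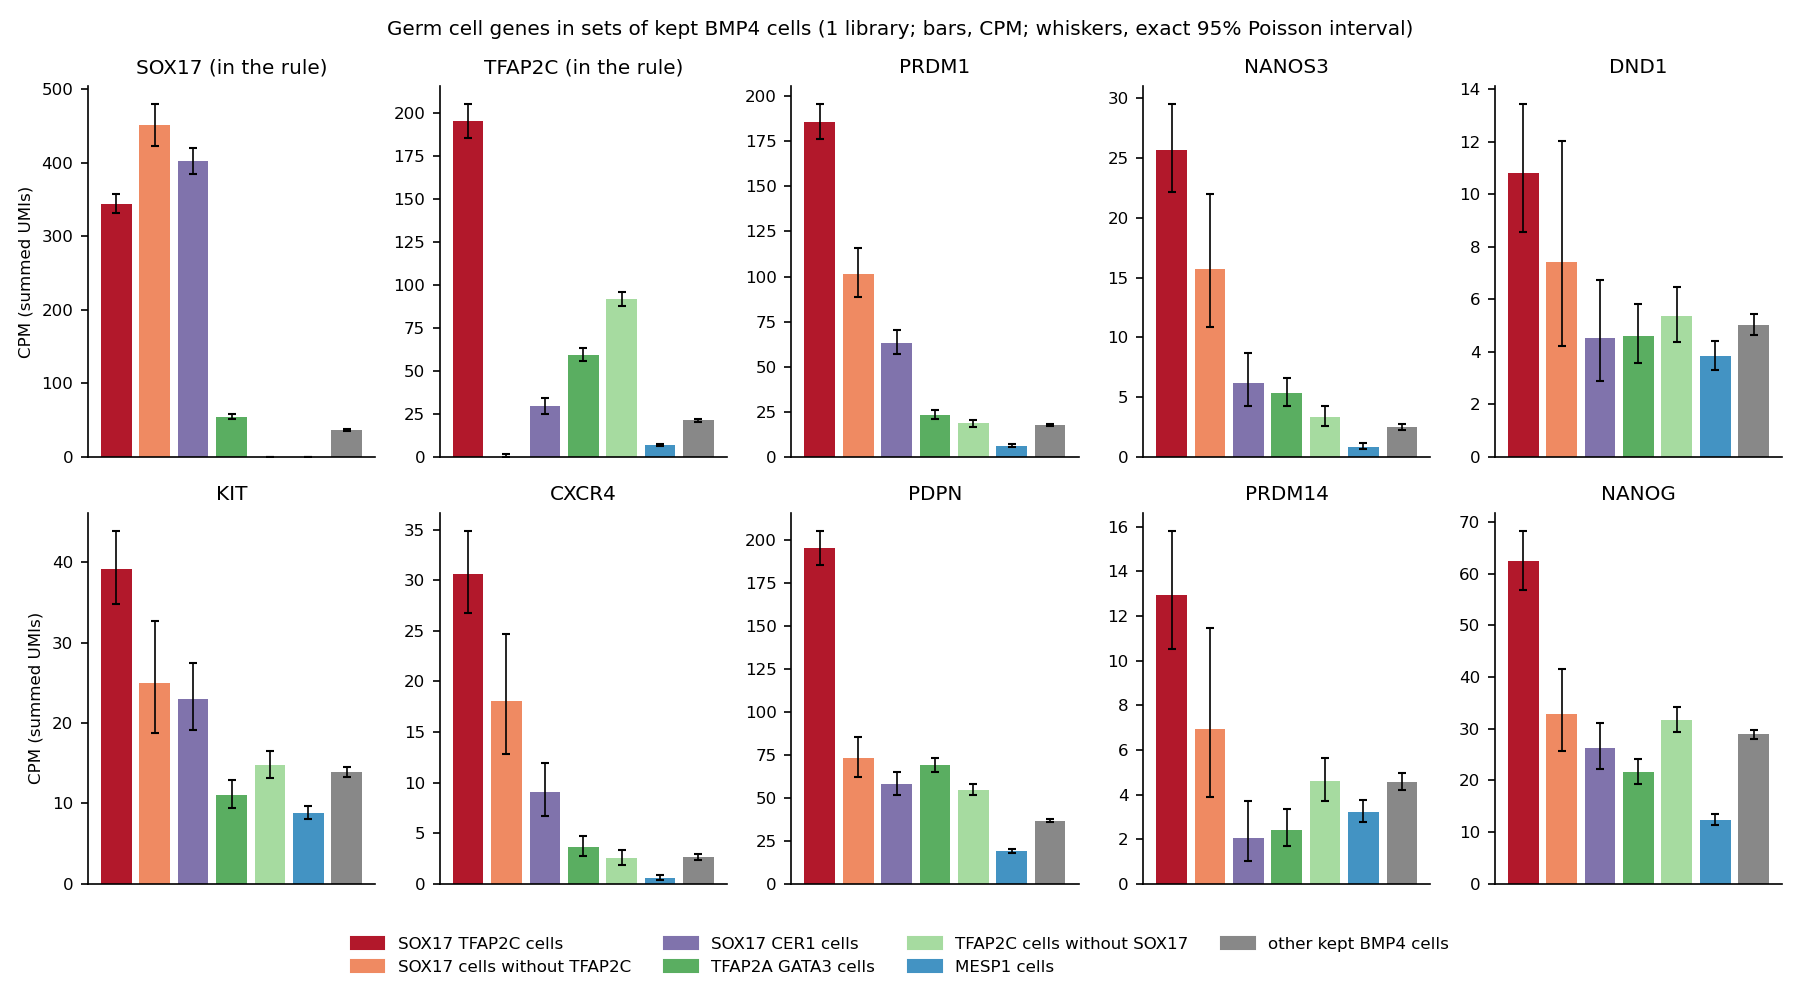
CPM of 10 germ cell genes (vertical axis, 1 panel per gene) in the SOX17 TFAP2C cells and 6 other sets of BMP4 cells, with exact 95% Poisson intervals; SOX17 and TFAP2C were used to choose cells. PRDM1 was at 186 CPM in the SOX17 TFAP2C cells, 101 CPM in SOX17 cells without TFAP2C and 63.4 CPM in SOX17 CER1 cells, against 17.6 CPM in the other kept BMP4 cells.

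The rule genes themselves are given as a description only. SOX17 ranged from 2 to 24 UMIs per member with a median of 5, and TFAP2C from 1 to 13 with a median of 3. Of the members, 391 had no CER1 UMI and 332 no MESP1 UMI. Just inside the SOX17 threshold, 97 members had exactly 2 SOX17 UMIs and carried PRDM1 at 193 CPM, whereas 149 cells just outside it, with 1 SOX17 UMI, carried PRDM1 at 133 CPM. The 114 members with 1 TFAP2C UMI had PRDM1 at 149 CPM, against 101 CPM in the 166 cells that met the rest of the rule with no TFAP2C UMI. At the MESP1 limit, 38 members with 2 UMIs had PRDM1 at 112 CPM and NANOS3 at 10.3 CPM, and 21 cells with 3 UMIs had them at 105 and 19.5 CPM. At the CER1 limit, 8 members with 3 or 4 UMIs had PRDM1 at 86.6 CPM and no NANOS3 UMI, and 2 cells with 5 or 6 had PRDM1 at 121 CPM and NANOS3 at 20.2 CPM. In these narrow bands NANOS3 was higher outside than inside at both limits, and PRDM1 at the CER1 limit. The NANOS3 values rest on 8 UMIs inside and 10 outside for MESP1, and on 0 and 1 for CER1. In wider bands both genes were lower outside. Members with 1 to 4 CER1 UMIs (52 cells) had NANOS3 at 32.9 CPM and PRDM1 at 127 CPM. With 5 or more (14 cells) they were at 20.03 and 112 CPM. Members with 1 or 2 MESP1 UMIs (111 cells) had 17.3 and 145 CPM, and 97 cells with 3 or more had 12.7 and 99.7 CPM.

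PRDM1 counts ran from 0 to 17 UMIs per member, with a median of 2, and from 0 to 24 with a median of 0 in the other kept BMP4 cells, so single cells of both groups overlapped. A PRDM1 UMI was present in 373 of 443 members (84.2%), against 12.8% of the other kept BMP4 cells. With every cell thinned to 8000 UMIs, which left 416 members, the share was 68.8% in members and 8.65% in the other kept BMP4 cells. Among MESP1 cells, a mesoderm set with at least 3 MESP1 UMIs and no SOX17 UMI that should lack germ cell genes, it was 3.89% at the same depth (6.88% unthinned, median 12755.5 UMIs per cell). NANOS3 was seen in 16.1% of thinned members, 0.727% of thinned MESP1 cells and 1.58% of thinned other kept BMP4 cells. Germ cell markers also met in the same cells: 241 of 443 members (54.4%) had a UMI of at least 2 of PRDM1, NANOS3, DND1 and KIT, against 588 of 8958 other kept BMP4 cells (6.56%), and 42 members had none of the 4. The share was 93 of 279 (33.3%) in the SOX17 CER1 cells described below. It was 44 of 166 (26.5%) in the SOX17 cells without TFAP2C that met the rest of the rule. These counts were not thinned, and the share expected from the separate detection rates of the 4 genes was not computed.

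**Figure D2:**
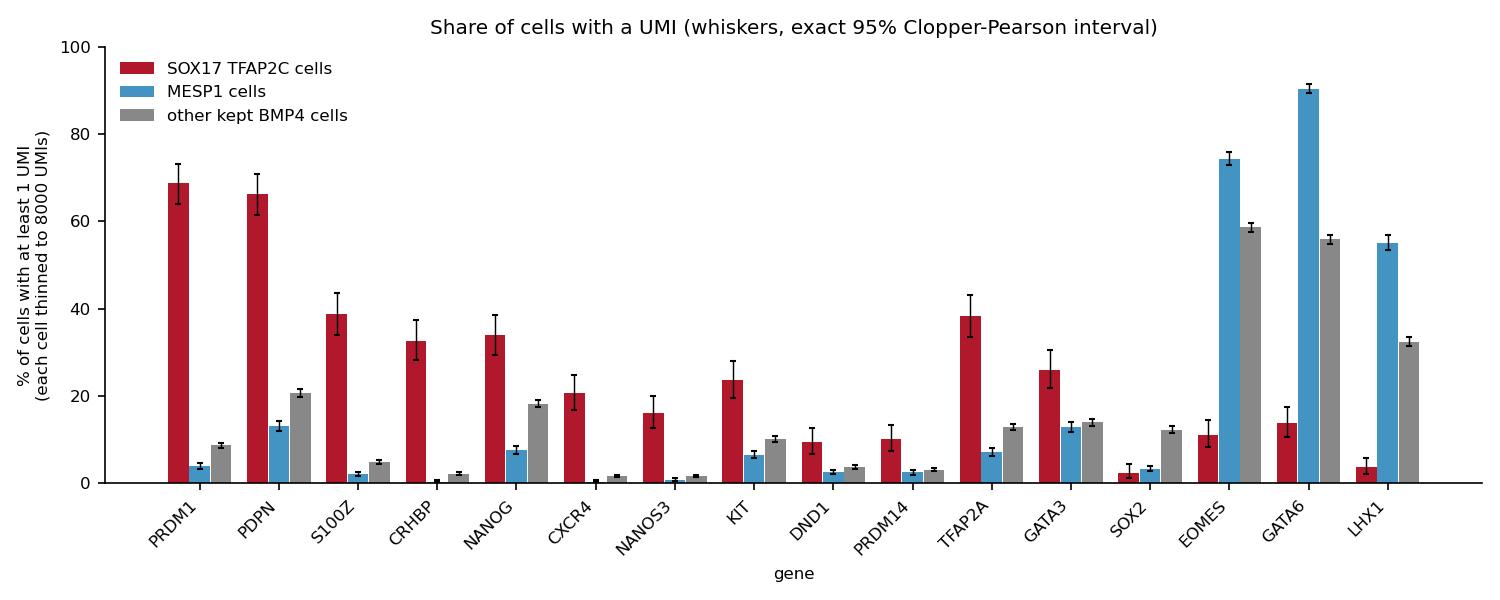
Share of cells with at least 1 UMI of each gene (vertical axis, percent; 16 genes on the horizontal axis) after thinning each cell to 8000 UMIs, with exact 95% Clopper-Pearson intervals. PRDM1 was seen in 68.8% of SOX17 TFAP2C cells, 3.89% of MESP1 cells and 8.65% of other kept BMP4 cells, whereas GATA6 was seen in 13.7%, 90.5% and 55.9%.

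The members' part of the library's germ cell transcripts varied by gene. They supplied 5.40% of all UMIs of kept BMP4 cells, 40.1% of CXCR4 UMIs, 37.6% of PRDM1 UMIs and 36.9% of NANOS3 UMIs. For the germ cell genes PRDM14 (13.9%), KIT (13.8%), NANOG (11.0%) and DND1 (10.9%) the share was smaller, and it was 1.34% for SOX2. CRHBP (45.1%, 42.1 to 48.2) and S100Z (33.9%) were named because they were among the highest in this same comparison. Over all kept cells, PRDM1 stood at 26.7 CPM in the BMP4 library, 5.51 CPM in CHIR+Activin and 1.51 CPM in CHIR. NANOS3 was at 3.75, 0.237 and 0.248 CPM in the same libraries. CXCR4 (4.13, 1.74 and 1.47 CPM) and PDPN (45.3, 41.4 and 38.2 CPM) were also highest in BMP4. KIT, DND1 and NANOG were not highest in the BMP4 library. KIT was at 15.3 CPM in BMP4, 21.0 CPM in CHIR+Activin and 23.6 CPM in CHIR. DND1 was at 5.34, 6.26 and 5.50 CPM, and NANOG at 30.7, 66.8 and 72.4 CPM, in the same order.

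Other early germ cell genes went partly the same way. Of the 21 in that list, 11 reached 10 CPM in either group, and 6 of these were at least 2-fold higher and 0 at least 2-fold lower in the SOX17 TFAP2C cells. Across all 10058 genes compared, 329 (3.27%) were at least 2-fold higher and 280 (2.78%) at least 2-fold lower. Since the rule used the same cells, nothing is read from the difference between these shares. CXCR4, the receptor that guides migrating germ cells toward CXCL12, stood at 30.6 CPM in the SOX17 TFAP2C cells against 2.61 CPM in the other kept BMP4 cells, a log2 ratio of 3.55 (3.30 to 3.80). PDPN, a mucin-like surface protein of human germ cells, was at 195 CPM against 36.8 CPM (log2 ratio 2.41, 2.32 to 2.49).

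PRDM14, a pluripotency factor with a role in germ cells, was at 13.0 CPM against 4.58 CPM (log2 ratio between 1.17 and 1.81), but its log2 ratio was -0.11 with cells thinned before the rule. NANOG (62.4 against 28.9 CPM), the co-repressor CBFA2T2 (136 against 62.0 CPM) and the integrin subunit ITGA6 (58.6 against 28.9 CPM) had log2 ratios of 1.11, 1.13 and 1.02. All 3 fell under 2-fold, to 0.93, 0.88 and 0.73, when the CER1 and MESP1 limits were dropped. POU5F1, the shared pluripotency factor, was at 981 CPM in the SOX17 TFAP2C cells and 892 CPM in the other kept BMP4 cells.

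Several of the 21 other early germ cell genes were scarcely present, as were genes of later germ cells. TFCP2L1 stood at 4.86 CPM, KLF4 at 2.29 CPM and UTF1 at 1.21 CPM in the SOX17 TFAP2C cells, and DPPA3 had 1 UMI in all of them. DAZL and DDX4, RNA-binding proteins of later germ cells, had 0 UMIs in the members, which allows 0.405 CPM each, against 0.786 and 0.208 CPM in the other kept BMP4 cells. Of the 15 later germ cell genes, PIWIL2 and TEX15 reached 10 CPM in either group, and neither was 2-fold apart.

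The motif GCCNNNGGC, bound by TFAP2 proteins and its own reverse complement, was looked for in the 250 bases before annotated starts in RefSeq (GRCh38.p14), for the 15 leading genes and the other markers. Of 21 genes looked for, 15 had a window in the table and 6 of these (40.0%) held the motif, against 23.0% of 27305 genes with a window. These 15 genes had more windows each than genes in general. By window, 8 of their 26 windows (30.8%) held the motif, against 19.8% of all 35116 windows, and 1 of the 3 NANOS3 windows did not hold it. PRDM1 and NANOS3 windows are shown because these markers were outside the rule, while TFAP2C was in it, and held the motif. KIT and DND1, also markers outside the rule, had 1 window each, and neither held the motif. Capitals mark the motif, all 4 windows lie on the plus strand, and the motif begins between 104 and 159 bases before the start.
NANOS3, chr19:13861852-13861910: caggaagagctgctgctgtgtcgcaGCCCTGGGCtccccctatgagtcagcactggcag
NANOS3, chr19:13876968-13877026: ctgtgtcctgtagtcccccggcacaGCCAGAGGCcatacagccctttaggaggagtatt
PRDM1, chr6:106086207-106086265: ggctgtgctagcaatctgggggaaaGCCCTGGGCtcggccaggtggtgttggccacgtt
PRDM1, chr6:106098778-106098836: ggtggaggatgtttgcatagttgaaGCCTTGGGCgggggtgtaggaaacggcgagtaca
Binding was not measured here, and a match describes these letters only.

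Beyond known markers, the highest gene over the other kept BMP4 cells was CRHBP, which encodes the binding protein of corticotropin-releasing hormone. It stood at 64.1 CPM (58.5 to 70.2) in the SOX17 TFAP2C cells against 4.45 CPM (4.10 to 4.83), a log2 ratio of 3.85 (3.67 to 4.03). The S100-family gene S100Z was at 78.8 CPM against 8.77 CPM (3.17), the adhesion molecule NRCAM at 79.8 against 10.9 CPM (2.87) and the lipid phosphatase PLPP1 at 970 against 144 CPM (2.75). CSMD3 (2.72), the bicarbonate transporter SLC4A8 (2.68), the collagen COL23A1 (2.68) and the calcium channel subunit CACNA2D2 (2.64) followed. The kinase NRK and the protein kinase A subunit PRKAR2B were both at 2.50, and the lipid flippase ATP8A1 at 2.39. The unnamed genes ENSG00000284294 (3.30) and ENSG00000291250 (2.72) completed the 15 with PRDM1 and PDPN.

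**Figure D3:**
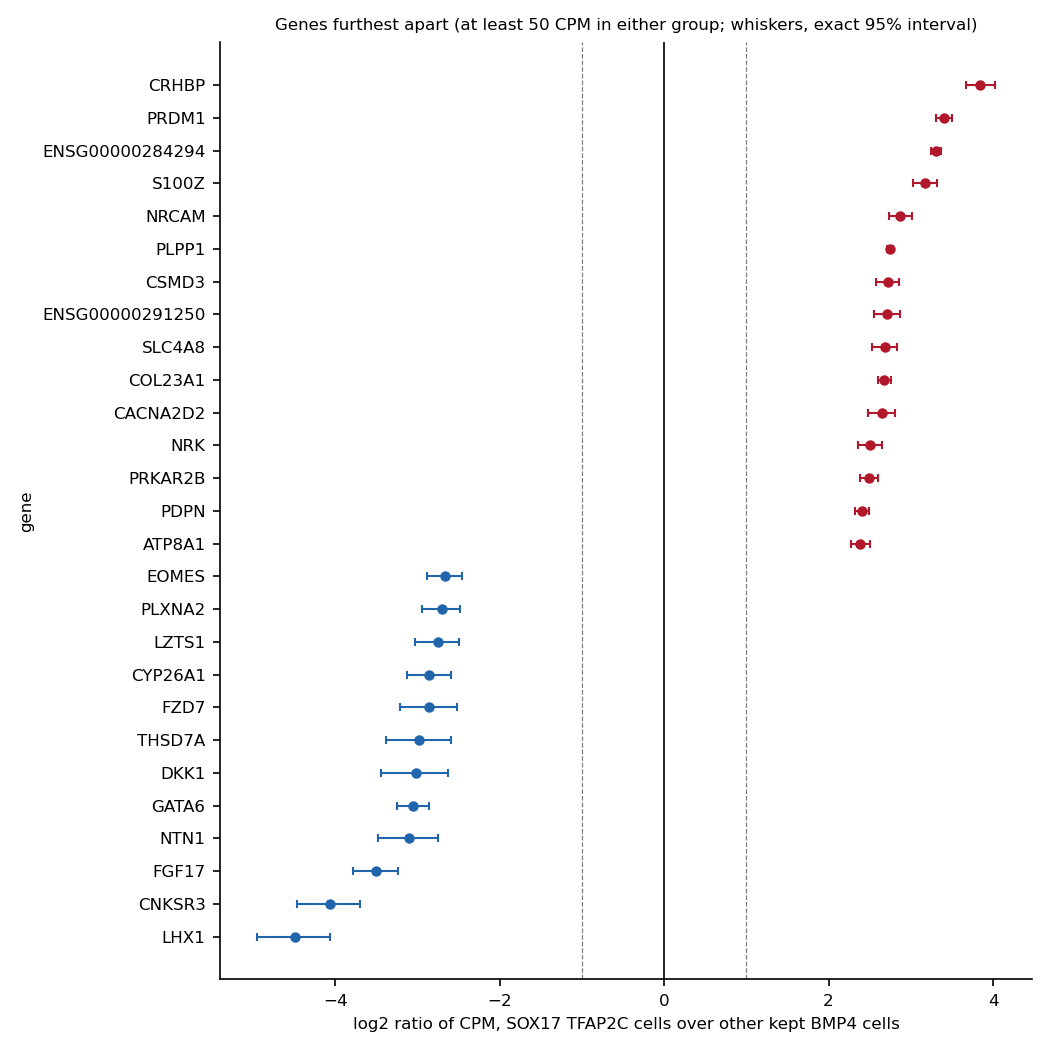
Log2 ratio of CPM in SOX17 TFAP2C cells over other kept BMP4 cells (horizontal axis) for the 15 highest and 12 lowest genes with at least 50 CPM in either group, with exact 95% intervals; dashed lines mark 2-fold. CRHBP was highest at 3.85 and LHX1 lowest at -4.49.

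Genes of the primitive streak, the transient structure where mesoderm and endoderm arise, were lower in the SOX17 TFAP2C cells. Of 11 compared, 9 were at least 2-fold lower and 0 higher, with a median log2 ratio of -1.74 beside 0.00 over all genes. EOMES was at 25.4 CPM against 161 CPM (-2.67, -2.88 to -2.46), MIXL1 at 87.9 against 293 CPM (-1.74) and TBXT at 89.0 against 209 CPM (-1.23). NODAL (-0.85) and WNT3 (-0.31) stayed within 2-fold. TBXT was not lost: 271 of 443 members (61.2%) had a UMI of it, against 75.3% of other kept BMP4 cells.

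Nascent mesoderm genes gave the lowest median of all lists with at least 3 genes compared, -2.46, with 8 of 11 genes outside the rule at least 2-fold lower. The LIM homeobox gene LHX1 stood at 5.94 CPM in the SOX17 TFAP2C cells against 133 CPM in the other kept BMP4 cells (-4.49, -4.95 to -4.06), and the receptors PDGFRA (-2.29) and APLNR (-2.63) were also lower. GATA6, a factor of mesoderm and endoderm, was at 30.1 against 250 CPM (-3.05), and the WNT inhibitor DKK1 at 6.88 against 55.8 CPM (-3.02). HAPLN1, a hyaluronan link protein, was the exception at 208 against 83.5 CPM (1.32). The limits on CER1 and MESP1 bear on these values: without them the log2 ratio was -1.34 for LHX1, -1.33 for GATA6, -1.32 for EOMES, -1.08 for DKK1 and -0.73 for TBXT.

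**Figure D4:**
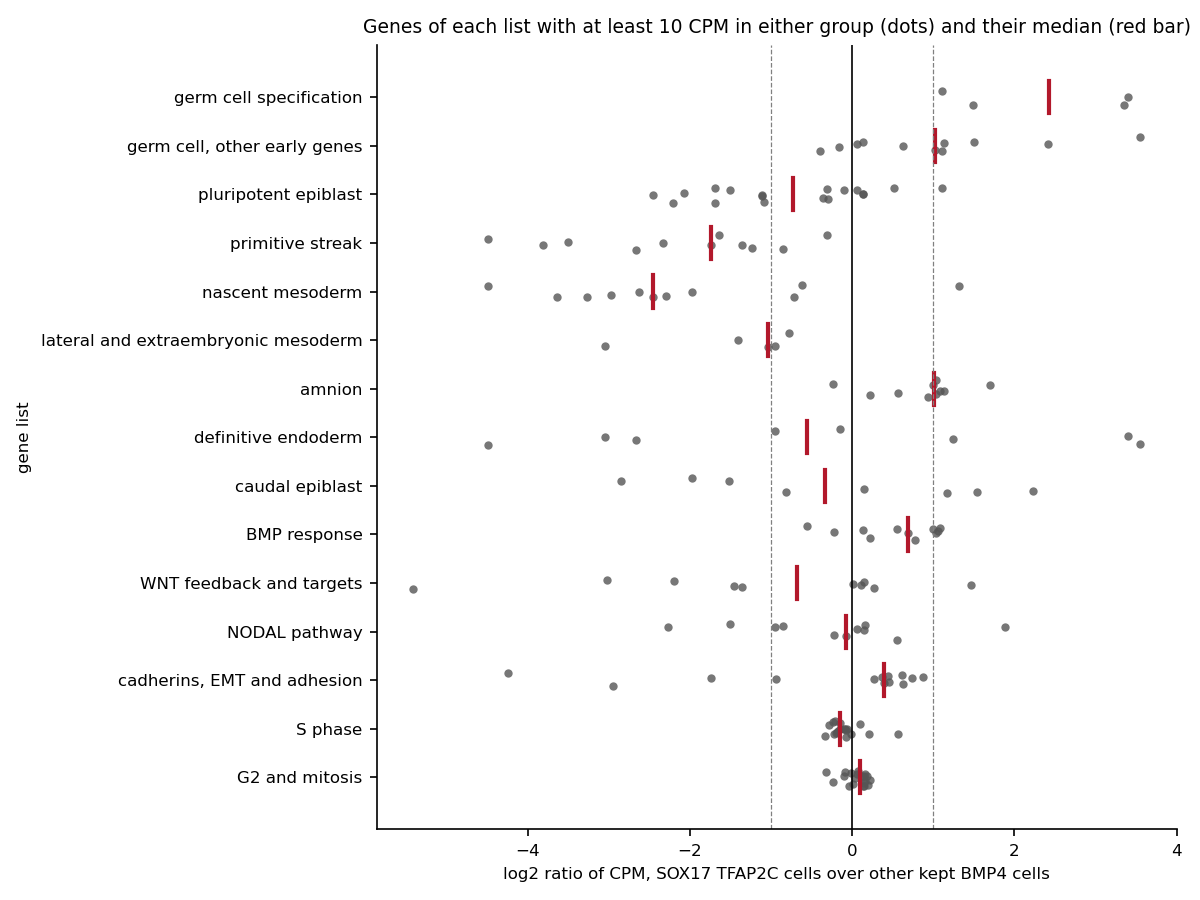
Log2 ratio of CPM in SOX17 TFAP2C cells over other kept BMP4 cells (horizontal axis) for genes of 15 lists (vertical axis) with at least 10 CPM in either group; each dot is a gene outside the rule and the red bar the list's median. Germ cell specification had a median of 2.42, nascent mesoderm -2.46 and G2 and mitosis 0.09.

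Epiblast genes were split around NANOG. Of 18 compared, NANOG was the 1 gene at least 2-fold higher, and 9 were at least 2-fold lower, among them SOX2, TDGF1, USP44, OTX2 and DNMT3B. Fewer were lower against the sets described below. Over the TFAP2A GATA3 cells, 0 of 16 were at least 2-fold lower and 1 higher. Over the SOX17 CER1 cells, 5 of 17 were lower and 2 higher. Over the SOX17 cells without TFAP2C, 1 of 17 was lower and 0 higher. SOX2 stood at 5.94 CPM (4.32 to 7.97; 44 UMIs) in the SOX17 TFAP2C cells against 24.9 CPM (24.1 to 25.8) in the other kept BMP4 cells, a log2 ratio of -2.07 (-2.53 to -1.64). It was also low in the TFAP2A GATA3 cells (7.94 CPM), SOX17 CER1 cells (8.09 CPM), SOX17 cells without TFAP2C (7.88 CPM) and MESP1 cells (7.22 CPM). In TFAP2C cells without SOX17 it was at 29.4 CPM. Its thinned share was 2.40% of members and 3.29% of MESP1 cells, and droplets without cells held SOX2 at 54.0 CPM. Of the 44 UMIs, 33 lay in the 42 members of sub-cluster 5, described below (32.4 CPM, against 1.72 CPM in the other members). The ratio was -3.86 without that sub-cluster and -5.18 with 10% of UMIs subtracted by the profile of those droplets. DNMT3B, the de novo DNA methyltransferase of the epiblast, was at 198 against 428 CPM (-1.11), and was under 2-fold, at -0.91, without the CER1 and MESP1 limits. OTX2 was at -1.24 without them, against -2.45 with them. The demethylating enzymes TET1 (0.57) and TET2 (0.72) were above 0 and under 2-fold, and the maintenance enzyme DNMT1 differed little (143 against 144 CPM).

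Some amnion genes were higher in the SOX17 TFAP2C cells. Of 10 compared, 5 were at least 2-fold higher and 0 lower, with a median of 1.01: TFAP2A at 90.2 against 27.7 CPM (1.70, 1.58 to 1.82), GATA3 at 52.1 against 25.5 CPM (1.03), GATA2 (1.09), DLX5 (1.13) and BAMBI (1.04). GATA3, GATA2 and BAMBI fell under 2-fold, at 0.93, 0.92 and 0.98, without the CER1 and MESP1 limits, and DLX5 was at -0.075 with cells thinned before the rule. A TFAP2A UMI was present in 239 of 443 members (54.0%), and 124 members (28.0%) had both TFAP2A and GATA3. The BMP target ID1 was at 1436 against 840 CPM (0.77) and ID4 at 44.1 against 21.2 CPM (1.06, and 0.91 without those limits), and 3 of 11 BMP response genes were at least 2-fold higher with 0 lower.

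Signalling genes were mixed in direction. In the WNT feedback list 5 of 10 were at least 2-fold lower, led by the receptor LGR5 with 5 UMIs (0.675 against 28.7 CPM, -5.41) and the factor LEF1 (7.02 against 32.3 CPM, -2.20), whereas the ubiquitin ligase RNF43 was higher (28.9 against 10.4 CPM, 1.47) and AXIN2 was at 22.9 against 21.3 CPM. LEFTY2, a NODAL inhibitor, was at 81.4 against 22.1 CPM (1.88, 1.75 to 2.01), while the co-receptor TDGF1 (-1.51) and the ligand GDF3 (-2.27) were lower. NKX1-2, a homeobox gene of the caudal epiblast, was at 88.7 against 18.8 CPM (2.23, 2.11 to 2.36), with WNT5B (1.54) and CDX2 (1.16), whereas the retinoic acid hydroxylase CYP26A1 was at 15.9 against 115 CPM (-2.85). The transition factors ZEB2 (8 UMIs, -4.24) and SNAI1 (-1.74) and the mesenchymal cadherin CDH11 (-2.95) were lower, while CDH1 was at 190 against 144 CPM (0.40). These lower values too moved with the CER1 and MESP1 limits: without them the log2 ratio was -2.17 for LGR5, -2.13 for ZEB2, -2.01 for CDH11, -1.37 for CYP26A1 and -1.09 for SNAI1. With cells thinned before the rule, LGR5 was at -1.96, ZEB2 at -1.52 and RNF43 at 0.78. None of the 19 S phase and 20 G2 and mitosis genes compared was 2-fold apart, with MKI67 at 96.5 against 87.5 CPM.

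The 797 TFAP2A GATA3 cells, an amnion-like set with at least 1 UMI of each gene, are a close comparison, since they too carry TFAP2C (59.4 CPM). Of 9959 genes, 218 (2.19%) were at least 2-fold higher and 214 (2.15%) at least 2-fold lower in the SOX17 TFAP2C cells. The highest were PRDM1 at 186 against 23.2 CPM (3.00), CRHBP (2.95), S100Z (2.88), NRCAM (2.76), COL23A1 (2.49), ATP8A1 (2.27), CACNA2D2 (2.26) and ENSG00000291250 (2.23). The lowest, after LHX1 (-3.14) and CNKSR3 (-2.84), were EPAS1 at 11.6 against 76.2 CPM (-2.71), the sodium-calcium exchanger SLC8A1 (-2.34), ANKRD1 (-2.31) and HAND1 at 76.5 against 360 CPM (-2.23), with FGF17 (-2.17) and GATA6 at 30.1 against 120 CPM. Of 13 amnion genes compared, 8 were at least 2-fold lower in the SOX17 TFAP2C cells, TFAP2A and GATA3 being fixed by the choice of these cells. NRK, high over the other kept BMP4 cells, was at 70.3 against 54.0 CPM here (0.38).

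The 279 SOX17 CER1 cells, with at least 2 SOX17 and 5 CER1 UMIs, had SOX17 at 402 CPM, against 344 CPM in the SOX17 TFAP2C cells. PRDM1 was at 186 CPM in the SOX17 TFAP2C cells against 63.4 CPM in the SOX17 CER1 cells (1.55), NANOS3 at 25.6 against 6.21 CPM (2.05) and NANOG at 62.4 against 26.3 CPM (1.24). The endoderm factor FOXA2 was low in both, at 4.18 against 8.47 CPM (31 UMIs in the members), and HHEX had 3 UMIs in the members. Of 10051 genes, 440 (4.38%) were at least 2-fold higher and 262 (2.61%) at least 2-fold lower, and 8 of 10 amnion genes were higher with 0 lower. These comparisons share the member cells and are not independent of each other.

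Among the sets compared over all genes, the 166 SOX17 cells without TFAP2C, which met all other criteria, had the fewest genes 2-fold apart from the members. Over them 117 of 9961 genes (1.17%) were at least 2-fold higher and 57 (0.572%) at least 2-fold lower in the SOX17 TFAP2C cells. PRDM1 was at 186 against 101 CPM (0.87), NANOS3 at 25.6 against 15.8 CPM (0.70), CXCR4 at 30.6 against 18.1 CPM (0.76) and PDPN at 195 against 73.2 CPM (1.42), while GATA6 was at 30.1 against 124 CPM (-2.04). Their median depth was 11461 UMIs against 14385 UMIs in members, and a missed TFAP2C transcript cannot be told apart from an absent one. The 149 cells with 1 SOX17 UMI that met the rest of the rule were not compared over all genes. In those 149 cells PRDM1 was at 133 CPM, NANOS3 at 19.7 CPM, PDPN at 166 CPM and GATA6 at 24.0 CPM.

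In a neighbour graph built from 2000 variable genes without the 4 rule genes, the median member had 55% members among its 20 nearest cells, against 4.71% of all kept cells. At least 10 of 20 neighbours were members for 264 of 443 members, and 11 members had none. Outside the rule, 162 other cells were in the same position. Clustering of all kept BMP4 cells placed 345 members (77.9%) in 1 cluster of 844 cells, of which they formed 40.9%, and another 70 (15.8%) in a cluster whose leading genes included CLDN10, DLX5 and ISL1. Doublet scores in the library's highest 6% were found for 27 members (6.09%), against 537 other kept BMP4 cells (5.99%). The share was 11.9% of TFAP2A GATA3 cells (median 16464 UMIs) and 15.8% of SOX17 CER1 cells (median 16685 UMIs), and its part in the comparisons with these sets was not tested.

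The members were not uniform. Clustered among themselves, again without the rule genes, they fell into 6 sub-clusters, which are described by their leading genes and left unnamed. Sub-cluster 1 (115 cells, median 13947 UMIs) was led by TRPC5, GABRA3, LEFTY2, NRCAM and VSTM2B and had the highest levels of PRDM1 (301 CPM), NANOS3 (43.1 CPM), DND1 (21.0 CPM), PDPN (378 CPM) and NANOG (113 CPM), with 0 SOX2 UMIs. KIT, at 49.7 CPM there, and SOX17, at 313 CPM, were higher in sub-cluster 6. Sub-cluster 2 (104 cells, 10941.5 UMIs) had CDX2 at 51.9 CPM and CXCR4 at 48.6 CPM. Neither set it apart, since CXCR4 was at 51.9 CPM in sub-cluster 1 and CDX2 at 51.3 CPM in sub-cluster 3. The other leading genes of sub-cluster 2 were MALSU1, MPG, TUBA1A and NUP35, all under 2-fold over the other members. Sub-cluster 3 (79 cells) was led by NKAIN2, PDE4D, ITGB8, SLIT2 and ENSG00000254951, and had CXCR4 and LEFTY2 both at 6.90 CPM.

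Sub-cluster 4 (66 cells, 20539 UMIs) stood apart through ANKRD1 at 54.8 against 1.18 CPM in the other members, LINC02694, EPAS1, SLC8A1 and SEMA3D. It carried the amnion gene ISL1 at 88.4 CPM, where the other 5 sub-clusters had 4.94 to 6.64 CPM, with HAND1 at 265 CPM and GATA3 at 132 CPM, yet PRDM1 at 138 CPM and NANOS3 at 14.4 CPM. Of the 27 members with the highest doublet scores, 1 was in it.

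Sub-cluster 5 (42 cells) had the highest median depth, 24168 UMIs, and held 19 of those 27 cells. EOMES was at 104 CPM, FGF17 at 61.9 CPM and SOX2 at 32.4 CPM in it, and PRDM1 at 71.7 CPM. GLIPR1L1, RMST and KIAA0825 were its other leading genes. The part of doublets in its pattern was not tested. Sub-cluster 6 (37 cells, 14762 UMIs) had the highest levels of SOX17 (496 CPM), S100Z (207 CPM), KIT (79.7 CPM) and GATA6 (113 CPM), with PRDM1 at 222 CPM and TFAP2A at 21.6 CPM. It was led by ENSG00000258312, LINC02955, FMN2, GALNT18 and KEL.

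**Figure D5:**
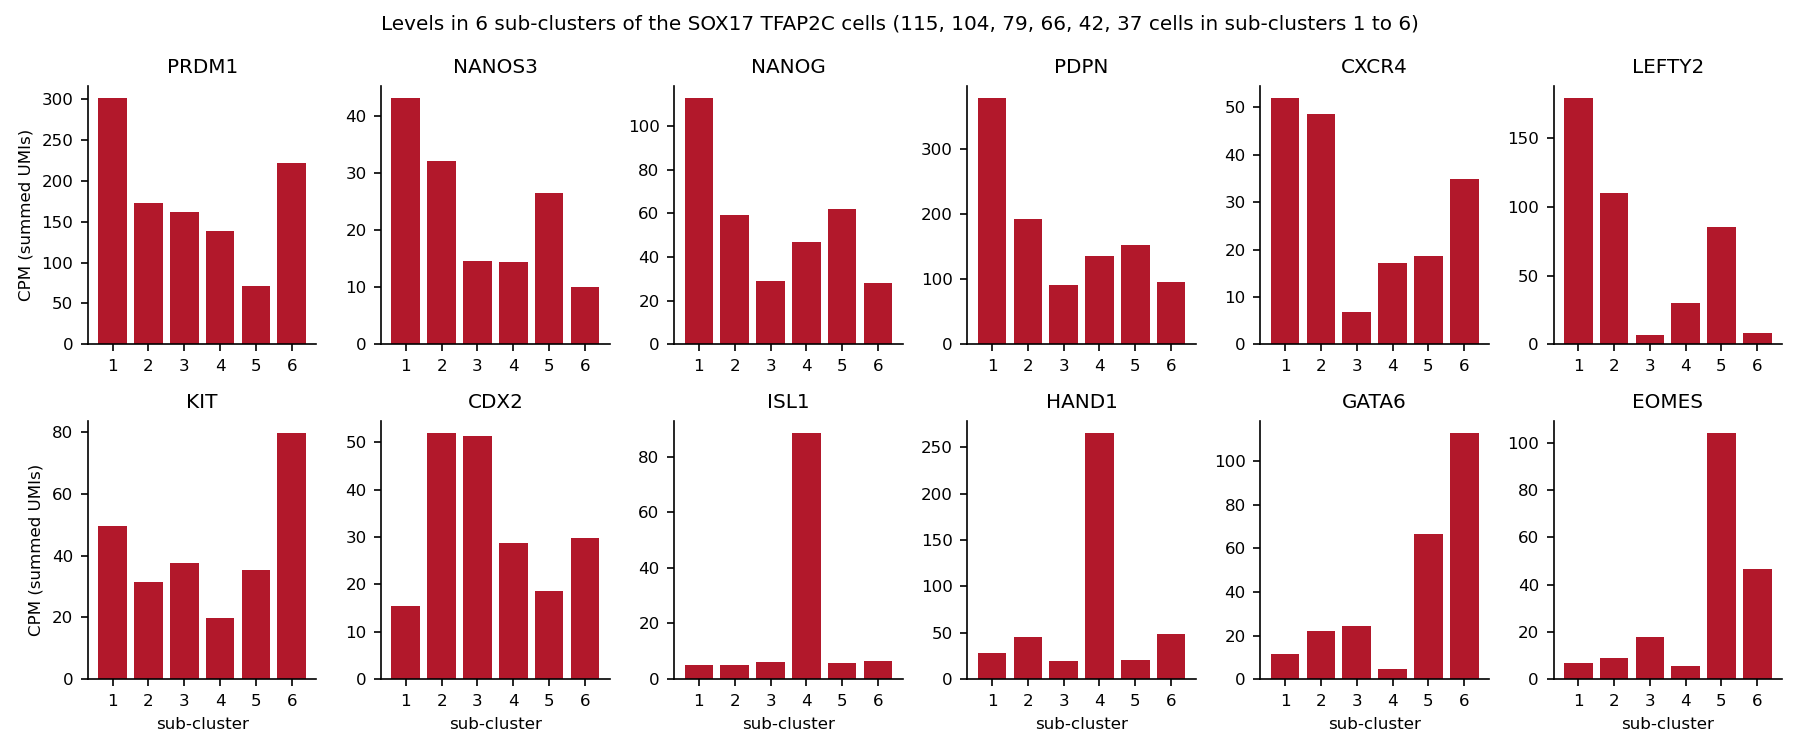
CPM (vertical axis) of 12 genes in the 6 sub-clusters of the SOX17 TFAP2C cells (horizontal axis), with no error bars. NANOG and PDPN were highest in sub-cluster 1 (113 and 378 CPM), ISL1 and HAND1 in sub-cluster 4 (88.4 and 265 CPM) and GATA6 in sub-cluster 6 (113 CPM).

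Splits of the members by single genes gave smaller contrasts. With 6 or more SOX17 UMIs (180 cells, median 16326.5 UMIs), PRDM1 was at 181 CPM and NANOS3 at 29.3 CPM, against 193 and 22.6 CPM in the 97 members with exactly 2. The 124 members with both TFAP2A and GATA3 had PRDM1 at 175 CPM, NANOS3 at 28.5 CPM and ISL1 at 50.6 CPM, against 194, 21.8 and 5.60 CPM in the 204 members without TFAP2A. The 70 members with no PRDM1 UMI had a median of 11709 UMIs, and still carried NANOS3 at 14.0 CPM and CXCR4 at 28.0 CPM, against 27.3 and 31.0 CPM in the 373 members with PRDM1. Members with no CER1 or MESP1 UMI (301 cells) had PRDM1 at 209 CPM and EOMES at 13.4 CPM, and the other 142 had 144 and 47.0 CPM.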

How the data were processed

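UMI counts per gene and droplet from 10x Genomics 3′ libraries were deposited as raw counts. The file headers name Cell Ranger, version 8.0.1. Seurat is named in the submitters' processing notes, and a genome build was not given in the sources used here. The BMP4 matrix held 1935344 barcodes. Kept cells had at least 3739 UMIs, at least 2000 of 38606 genes and at most 15% mitochondrial UMIs, which left 9401 of 9440 BMP4 barcodes, with 137174566 UMIs.

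UMIs were summed per set of cells, scaled to CPM, and compared as log2 ratios with exact conditional binomial 95% intervals, for genes with at least 10 CPM in either set. The 443 members held 7408344 UMIs, so 3 counts equal 0.405 CPM. A set at 0 counts was given 3. Where a symbol had several IDs (21 symbols), the ID with most UMIs was used. CPM are UMIs per 1000000 UMIs of the set. Doublets were scored by the Scrublet procedure (2 simulated doublets per cell) and kept, with an alternative without the highest 6%. Empty droplets were 73901 barcodes of 10 to 100 UMIs. Sub-clusters used 1000 variable genes, 20 components, 15 neighbours and Leiden resolution 0.5.

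Named genes were the markers, the list genes and, with at least 50 CPM, the 15 highest and 12 lowest over other cells, 8 each way over TFAP2A GATA3 cells and 5 per sub-cluster. The members and all 32 lists were chosen with earlier results of these data known. The ratio step was tested on simulated data. Python 3.11.15, numpy 2.4.6, scipy 1.17.1, scikit-learn 1.9.0, igraph 0.11.9, leidenalg 0.10.2 and matplotlib 3.10.9 were used.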

Additional observations from a re-analysis of the deposited data

How the results depend on the processing

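No paired analysis was possible because each treatment was 1 library. The share of kept BMP4 cells that met the rule was 6.30% with SOX17 of at least 1 UMI, 3.68% with at least 3, 3.50% with TFAP2C of at least 2, 6.42% with no limit on CER1 or MESP1, 4.28% without sub-cluster 5, and 1.15% (108 cells) with all cells thinned to 3739 UMIs before the rule. Genes at least 2-fold higher in the SOX17 TFAP2C cells, 329 in the main comparison, numbered 219 with no limit on CER1 or MESP1, 512 with thinning, 134 with a minimum of 50 CPM and 815 with 1 CPM. Genes at least 2-fold lower, 280 in the main comparison, numbered 872 with thinning, 80 with a minimum of 50 CPM and 1049 with 1 CPM. Under thinning, PRDM14 (-0.11) and DLX5 (-0.075) changed sign, and the cause was not tested. The members' values and the gene counts under thinning rest on 108 cells of 3739 UMIs each, and are given without intervals. Of 91 named genes at least 2-fold apart, all 91 kept their direction under the other 14 settings. The 91 include the 4 rule genes, whose direction the rule set, apart from CER1 and MESP1 where their limits were dropped. The minimum-CPM settings could not alter a gene's ratio, and centring moved all ratios by the same amount. With no limit on CER1 or MESP1, 22 of the 91 were under 2-fold, against 17 with thinning and at most 5 under any other setting. The settings without sub-cluster 5, and without other cells that lay among members, were added after the data were seen. Resolution 1 gave 7 sub-clusters in place of 6. DND1, NANOS3 and SOX2 rest on 80, 190 and 44 UMIs in the members, and PRDM1 was detected in 84.2% of them unthinned against 68.8% at 8000 UMIs.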

Other observations

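The leading gene CRHBP and the fourth, S100Z, are adjacent protein-coding genes on chromosome 5 in the RefSeq gene table. S100Z stood at 78.8 CPM in the SOX17 TFAP2C cells against 8.77 CPM in the other kept BMP4 cells (log2 ratio 3.17, 3.02 to 3.31), and CRHBP at 64.1 against 4.45 CPM (3.85). The protein-coding genes next to them were nearer to the other cells: F2RL1, a protease-activated receptor, was at 15.4 against 11.2 CPM (0.46, 0.17 to 0.73), F2R, the thrombin receptor, at 15.7 against 8.49 CPM (0.88, 0.59 to 1.16), AGGF1 at 33.7 against 24.4 CPM (0.47, 0.28 to 0.65) and ZBED3 at 7.56 against 7.77 CPM (-0.04, -0.45 to 0.35). The pair was singled out after its values were seen. Strand and overlap of the counting were not examined.

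The stem cell factor gene KITLG, the ligand of KIT, was at 11.1 CPM in the SOX17 TFAP2C cells against 26.7 CPM in the other kept BMP4 cells (-1.27, -1.60 to -0.95), the opposite direction to KIT. CXCL12, the ligand of CXCR4, was at 10.5 against 15.3 CPM (-0.54, -0.88 to -0.21) and at 35.4 CPM in the TFAP2A GATA3 cells. VIM was at 196 against 118 CPM (0.74, 0.66 to 0.82), and APELA, a peptide ligand of APLNR, at 43.6 against 18.3 CPM (1.25, 1.08 to 1.42, and 0.97 without the CER1 and MESP1 limits), while APLNR was at 6.48 against 40.2 CPM (-2.63).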
